A study of Mus musculus with 67 samples.

Results

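The 9 genes described here encode the activating receptor CD226, its counterpart TIGIT and other molecules known as immune checkpoints of T cells: *Cd226*, *Tigit*, *Cd96*, *Pdcd1*, *Lag3*, *Havcr2*, *Btla* and *Cd160*, together with *Tox*, a transcription factor. They were taken by symbol, 9 of 24471 gene features in 59 libraries of the later sequencing experiment and 9 of 24421 symbols in 8 pilot libraries. In the later experiment, activated conventional T cells (Tconv, gated as live CD4+ CD25- Foxp3GFP- CD44hi CD62Llow) and Tregs were sorted from the hypothalamus or from the brain without hypothalamus (rest brain) of Balb/c or C57Bl/6J mice on a standard diet (SD) or a high-fat high-sugar (HFHS) diet. The sort used Foxp3GFP, while the labels of the C57Bl/6J libraries give the strain alone. Diets began at a young adult age, the time on the diet is not given in the sources used here, and by the study's methods a library held cells of 5 pooled mice, although the range of numbers in the pool label spans 5 in 43 of the 59 libraries, 4 in 6, 6 in 3 and 7 in 4, and ends below its start in 3. Balb/c mice were female and C57Bl/6J mice male, so that strain and sex cannot be told apart in any strain comparison. The groups held 4 libraries each in the hypothalamus and 2 to 4 in the rest brain, where Tregs of Balb/c mice on SD had 2. The pilot libraries came from hypothalami of female mice, 1 for each condition. Of these, 4 come from Balb/c mice with the Foxp3GFP allele, kept for 16 weeks on SD or HFHS diet with 9 mice pooled, and hold either CD4+ T cells labelled CD44- or Tregs gated as CD4+, CD25+ and Foxp3GFP+. The other 4 hold CD4+ T cells or CD25high Tregs from leptin-deficient *ob*/*ob* animals and from wild-type (WT) C57Bl/6J animals, with 7 mice pooled.

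CD226 and TIGIT compete for the same ligands, CD155 and CD112, which are encoded by *Pvr* and *Nectin2*. Binding by CD226 promotes the activation of a T cell, while TIGIT restrains it, and CD96 shares the ligand CD155. PD-1 (*Pdcd1*), BTLA, CD160, LAG-3 and TIM-3 (*Havcr2*) are receptors induced or kept on T cells that have met antigen, and TOX maintains the program of T cells under lasting antigen stimulation. TIGIT and PD-1 are also known from Tregs, where TIGIT marks highly suppressive cells.

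In GRCm38.p6, *Tigit*, *Cd96* and *Btla* all lie on chromosome 16, at 43626137 to 43665125, at 46035652 to 46120248 and at 45223705 to 45252895. *Pdcd1* is on chromosome 1 (94038305 to 94052553), *Lag3* on chromosome 6 (124904359 to 124912434), *Havcr2* on chromosome 11 (46454931 to 46481255), *Tox* on chromosome 4 (6686353 to 6991557) and *Cd160* on chromosome 3 (96798763 to 96829351). For *Tigit* and *Pdcd1*, which were both lower in Balb/c Tconv of the rest brain, the RefSeq sequence of GRCm38.p6 from 250 bases before to 50 bases after the annotated start is shown. Capitals mark matches, on either strand, to the core letters of NFAT (GGAAA), AP-1 (TGANTCA), forkhead (GTAAACA) or RUNX (TGTGGT) motifs.
Tigit, minus strand, chr16:43664135-43664434: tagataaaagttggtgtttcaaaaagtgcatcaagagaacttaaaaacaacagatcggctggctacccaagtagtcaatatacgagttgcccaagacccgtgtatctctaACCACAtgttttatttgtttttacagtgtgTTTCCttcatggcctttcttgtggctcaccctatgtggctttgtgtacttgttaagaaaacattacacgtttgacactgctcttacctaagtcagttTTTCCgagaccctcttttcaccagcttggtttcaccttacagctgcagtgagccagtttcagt
Pdcd1, minus strand, chr1:94052504-94052803: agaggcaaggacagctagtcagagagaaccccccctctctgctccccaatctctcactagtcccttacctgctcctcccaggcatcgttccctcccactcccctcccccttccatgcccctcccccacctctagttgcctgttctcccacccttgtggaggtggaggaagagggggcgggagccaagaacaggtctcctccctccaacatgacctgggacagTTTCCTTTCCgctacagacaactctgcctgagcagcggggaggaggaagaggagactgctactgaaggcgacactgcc
The start used for *Tigit* lies inside the span given above, downstream of its outermost start. Its window held 2 NFAT matches and 1 RUNX match, and that of *Pdcd1* 2 NFAT matches next to each other. NFAT letters occur in 61.3% of 32851 promoter windows of the same length, RUNX letters in 16.8%, AP-1 letters in 7.81% and forkhead letters in 3.65%. *Cd96* had 5 NFAT and 2 RUNX matches, *Havcr2* 1 AP-1 and 1 RUNX match and *Btla* 1 RUNX match.

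The libraries of Tconv held 11340062 to 28187003 estimated counts. Those of Tregs ranged from 8938478 to 24985601 in the rest brain and from 1724154 to 38482282 in the hypothalamus. *Foxp3*, which defines Tregs, was at 241 to 767 CPM (counts-per-million of the library total) in rest brain Tregs, at 0.098 to 862 CPM in hypothalamic Tregs and at most 13.8 CPM in Tconv. In 4 of the 16 libraries labelled as hypothalamic Tregs, *Foxp3* was under 10 CPM. Of the 59 libraries, 6 stood apart by low depth, few detected features or transcripts of microglia (*P2ry12*), and these 4 were among them. The others were 1 hypothalamic Treg library and the rest brain Tconv library of Balb/c mice on SD with replicate number 3. In these bulk samples, fewer cells of a type and less RNA per cell cannot be told apart. In the later experiment, counts of 0 to 3 are taken as not detected.

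Levels of different genes were compared in TPM (transcripts-per-million), which allow for transcript length. In Tconv, *Cd96* had the highest median at 212 TPM over 29 libraries, followed by *Cd226* at 155 TPM. *Tigit* (37.1 TPM), *Pdcd1* (34.3), *Tox* (25.5) and *Btla* (21.4) came next, with ranges that overlapped widely, and *Cd160* had a median of 8.94 TPM. *Lag3* and *Havcr2* were near the limit of detection, with medians of 0.17 and 0.03 TPM. In the 30 libraries of Tregs the order differed below *Cd96* (167 TPM), with *Tigit* at 139, *Pdcd1* at 74.7, *Tox* at 65.9, *Cd226* at 37.6 and *Btla* at 19.2 TPM. *Cd160*, *Lag3* and *Havcr2* had a median of 0 in Tregs. These medians pool tissues, strains and diets and include the libraries that stand apart, so the order need not hold in each group.

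**Figure D1:**
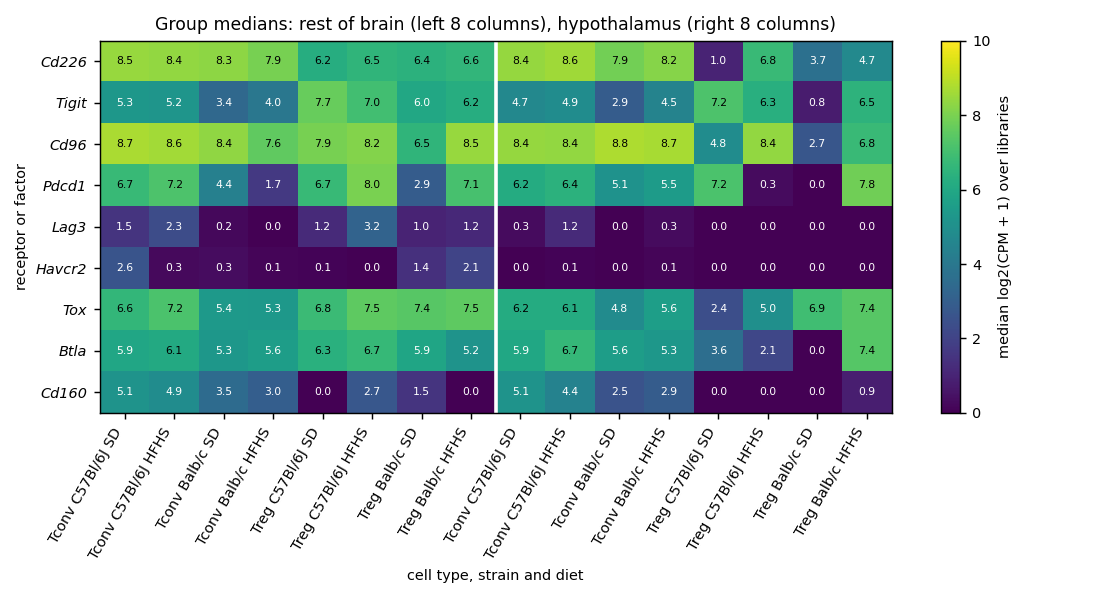
Median level of each of the 9 genes in the 16 groups of the later experiment, as log2(CPM + 1), for the rest brain on the left and the hypothalamus on the right. *Cd226* and *Cd96* stand highest in all Tconv groups, and *Lag3* and *Havcr2* stay low in nearly all groups.

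The first comparison asked how the receptors differ between Tregs and Tconv of the same tissue. In the rest brain, where no Treg library stood apart, *Tigit* and *Tox* were higher in Tregs and *Cd226* was lower. The 6 other genes did not pass the test. Adjusted p-values here and below come from edgeR's quasi-likelihood test with Benjamini-Hochberg adjustment over all genes tested, with a threshold of 0.05. Among 13921 genes, 4.37% were higher and 10.5% lower in Tregs, against 2 and 1 of the 9 members, and the median log2 fold change was −0.20 over all genes and 0.98 over the members. These medians depend on the fit, at −1.02 and 0.12 with the pool as a block and −0.69 and 0.34 with limma-voom. Markers of other cells were measured beside it. The 5 NK cell markers summed to 17.1 to 119 CPM in the 13 Tconv libraries and to at most 0.12 CPM in the 14 Treg libraries, and *Cd8a* with *Cd8b1* to 1.94 to 736 CPM (median 276) and 0.06 to 78.5 CPM (median 21.5). T cell markers summed to 5092 to 6583 CPM and 4467 to 6591 CPM, and microglial markers to 68.9 to 667 CPM and 54.9 to 289.5 CPM. Endothelial markers had medians of 24.96 CPM in Tconv and 94.9 CPM in Tregs, mostly *Pecam1*, since *Cldn5*, *Cdh5* and *Flt1* were under 1 CPM in every library. The Tconv libraries held 10243 to 11519 features over 10 counts and the Treg libraries 5433 to 9615, without overlap. Their part in the result was not tested.

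*Cd226*, which lies on chromosome 18 of GRCm38.p6 from 89176954 to 89272232, was high in every rest brain Tconv library. In C57Bl/6J mice it had 372, 427, 308 and 328 CPM on SD and 286, 367 and 329 CPM on the HFHS diet. Balb/c Tconv had 314, 207 and 424 CPM on SD, the last in the library that stands apart, and 382, 245 and 210 CPM on the HFHS diet. All 13 values lie between 207 and 427 CPM, and the ranges of the strains and of the diets overlapped.

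Tregs of the rest brain showed a wider spread of *Cd226*. In C57Bl/6J mice the values were 123, 75.2, 6.40 and 73.7 CPM on SD and 16.2, 63.2, 185 and 132 CPM on the HFHS diet. Balb/c Tregs had 258 and 27.1 CPM on SD and 144, 66.8, 134 and 52.5 CPM on the HFHS diet. Every C57Bl/6J Treg library lay below every C57Bl/6J Tconv library, whereas in Balb/c mice 1 Treg library, at 258 CPM, overlapped the Tconv range. *Cd226* was 3.41-fold lower in Tregs (log2 fold change −1.77, SE 0.35, adjusted p = 0.000941), and the value was −2.05 in C57Bl/6J and −1.68 in Balb/c mice alone (adjusted p = 0.0325 and 0.0123). On SD alone, it was −1.96 with an adjusted p of 0.0705.

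*Tigit* showed the opposite order. In rest brain Tconv of C57Bl/6J mice it had 41.3, 35.9, 42.6 and 33.7 CPM on SD and 75.9, 36.1 and 28.3 CPM on the HFHS diet. Balb/c Tconv had 10.3, 9.27 and 2.73 CPM on SD, the last in the library that stands apart, and 14.7, 20.1 and 5.99 CPM on the HFHS diet. The 2 strains did not overlap in Tconv.

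In rest brain Tregs of C57Bl/6J mice, *Tigit* reached 385, 231, 175 and 175 CPM on SD and 125, 126, 77.1 and 141 CPM on the HFHS diet. Balb/c Tregs had 67.01 and 57.6 CPM on SD and 91.9, 60.7, 48.9 and 149 CPM on the HFHS diet. Within each strain, every Treg library lay above every Tconv library. *Tigit* was 5.34-fold higher in Tregs (log2 fold change 2.42, SE 0.32, adjusted p = 3.81e-06), and passed the test in each strain alone (2.05 in C57Bl/6J, adjusted p = 0.00360, and 2.55 in Balb/c mice, adjusted p = 0.00294) and on each diet alone.

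**Figure D2:**
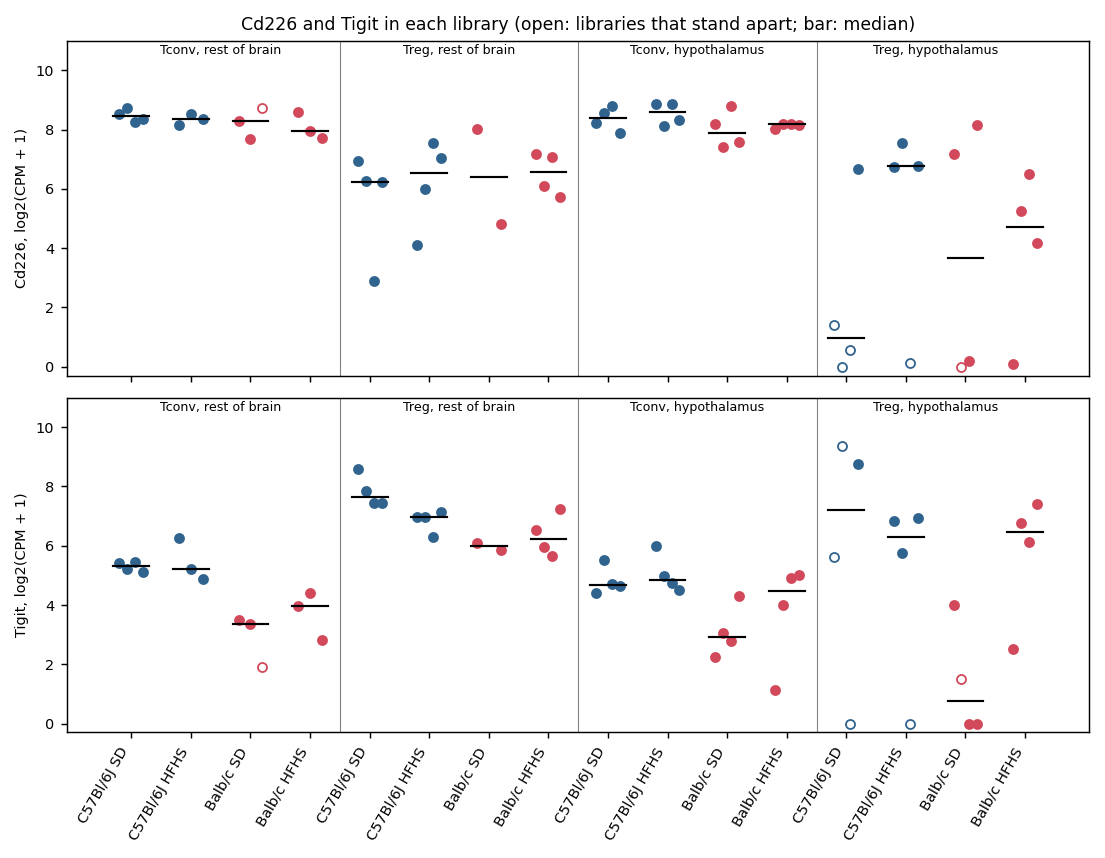
*Cd226* (top) and *Tigit* (bottom) as log2(CPM + 1) in each of the 59 libraries, grouped by cell type, tissue, strain and diet, with the median as a bar and libraries that stand apart as open circles. *Cd226* lies between 207 and 427 CPM in all rest brain Tconv libraries, and the Treg libraries of the hypothalamus scatter from 0 to 286 CPM.

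The balance of the receptors was described by the log2 ratio of *Tigit* to *Cd226*, taken as (TPM + 1) in each library. The ratio was above 0 in 13 of 14 rest brain Treg libraries, with a median of 2.60, and in 0 of 13 rest brain Tconv libraries, with a median of −1.94. In CPM, which do not allow for transcript length, *Tigit* stood above *Cd226* in 9 of 14 and 0 of 13 of them. Its median in rest brain Tconv was −1.65 in C57Bl/6J and −3.13 in Balb/c mice. In Tregs it was 3.02 in C57Bl/6J mice, positive in 8 of 8 libraries, and 1.21 in Balb/c mice, positive in 5 of 6. In CPM these counts were 7 of 8 and 2 of 6, so that for Balb/c Tregs the order of both genes depends on the length scaling. Hypothalamic Tconv had a median of −2.24 with 0 of 16 libraries above 0, and hypothalamic Tregs were above 0 in 10 of 16, with 3 libraries in which both genes were under 1 CPM.

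**Figure D3:**
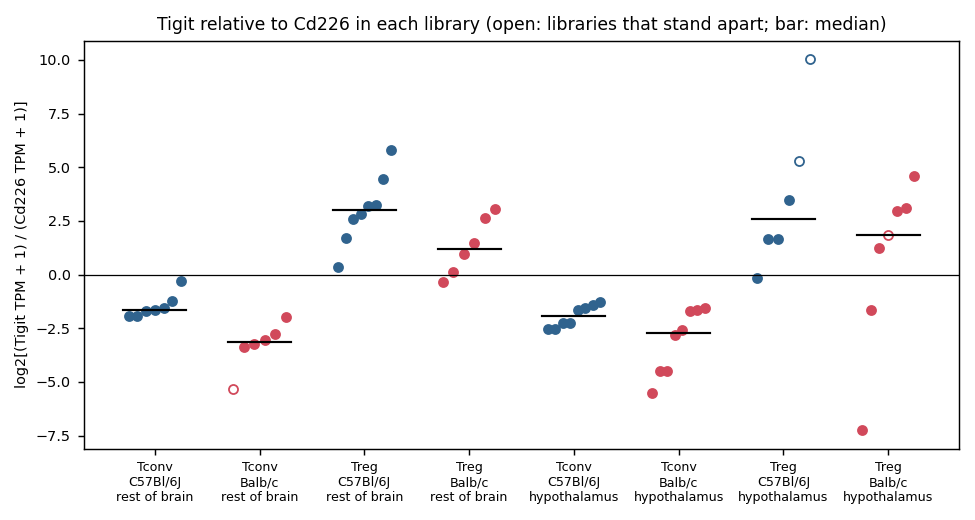
The log2 ratio of *Tigit* to *Cd226*, taken as (TPM + 1), in each library, by cell type, strain and tissue, with the median as a bar, libraries that stand apart as open circles and the 3 libraries with both genes under 1 CPM left out. All 29 Tconv libraries lie below 0, and 13 of the 14 rest brain Treg libraries lie above it.

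*Cd96*, the third receptor for CD155, did not follow either gene. Its level in the rest brain was 182 to 465 CPM in Tconv (median 378) and 15.9 to 691 CPM in Tregs (median 306), and its log2 fold change lay from −0.61 to 0.61 at 2 SE (adjusted p = 0.9997). *Pdcd1* had a median of 52.9 CPM in rest brain Tconv and 139 CPM in Tregs, with a fold change of 3.52 that did not pass (adjusted p = 0.0593). With DESeq2's Wald test, *Pdcd1* passed (log2 fold change 1.85, adjusted p = 0.0167).

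*Tox* was 1.97-fold higher in rest brain Tregs (log2 fold change 0.98, SE 0.28, adjusted p = 0.0137), but passed on neither diet alone (0.81 on SD, adjusted p = 0.421, and 0.98 on the HFHS diet, adjusted p = 0.0722). Its difference between cell types was not alike in the strains. Rest brain Tconv had 126, 87.8, 110 and 83.1 CPM (SD) and 143, 175 and 130 CPM (HFHS) in C57Bl/6J mice, against 40.1, 39.0 and 52.7 CPM (SD) and 30.3, 39.5 and 55.1 CPM (HFHS) in Balb/c mice. Tregs had 174, 42.9, 171 and 72.9 CPM (SD) and 121, 169, 208 and 194 CPM (HFHS) in C57Bl/6J mice, and 119 and 233 CPM (SD) and 115, 294, 174 and 189 CPM (HFHS) in Balb/c mice. Thus Tregs and Tconv of C57Bl/6J mice overlapped, and those of Balb/c mice did not. The log2 fold change was 0.21 (adjusted p = 0.935) in C57Bl/6J and 1.84 (adjusted p = 0.000431) in Balb/c mice alone. The interaction of cell type and strain was tested in one fit, in which 4.23% of 13921 genes passed, and *Tox* was the 1 member to pass (1.71, SE 0.42, adjusted p = 0.0162). With the pool of mice as a block, neither the difference of *Tox* between cell types (0.84, adjusted p = 0.125) nor the interaction (1.82, adjusted p = 0.111) passed, with both of the same sign.

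The remaining receptors were sparse or variable. *Btla*, which binds HVEM (*Tnfrsf14*), had 25.03 to 114 CPM in rest brain Tconv and 0 to 225 CPM in Tregs. *Cd160*, another receptor for HVEM, was detected in 13 of 13 rest brain Tconv libraries (1.96 to 59.9 CPM) and in 4 of 14 Treg libraries (0 to 60.2 CPM), with a log2 fold change of −2.07 (SE 1.40, adjusted p = 0.403). With the pool as a block, *Cd160* was lower in Tregs (−9.61, adjusted p = 0.0101). *Lag3* was at most 6.19 CPM in rest brain Tconv and 27.6 CPM in Tregs, and *Havcr2* at most 7.77 and 64.1 CPM. Neither passed between the cell types (1.06, SE 1.14, and 2.69, SE 1.68).

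In the hypothalamus, 0 of the 9 genes passed the test between Tregs and Tconv, where 0.542% of 11254 genes were higher and 7.18% lower. At an unadjusted p under 0.05 stood 3 of them, *Cd226*, *Lag3* and *Tigit*, and 16.4% of all genes. DESeq2's Wald test called 1 (*Cd226*, log2 fold change −2.20, adjusted p = 0.0327) and 1598 of all genes. Limma-voom with quality weights called 4, in a fit that called 7312 of the 11254 genes with a median over all genes of −3.60. *Cd226* in hypothalamic Tconv had 301, 378, 442 and 238 CPM (SD) and 468, 281, 464 and 319 CPM (HFHS) in C57Bl/6J mice, and 289, 171, 442 and 190 CPM (SD) and 260, 290, 290 and 287 CPM (HFHS) in Balb/c mice. The Tregs had 1.66, 0, 0.476 and 102 CPM (SD) and 107, 185, 0.0858 and 109 CPM (HFHS) in C57Bl/6J mice, of which the first 3 on SD and the third on the HFHS diet were in libraries that stand apart. Balb/c Tregs had 143, 0, 0.132 and 286 CPM (SD), the second in a library that stands apart, and 0.0570, 37.3, 89.4 and 17.0 CPM (HFHS). *Cd226* was thus at 1.66 CPM or less in 7 of the 16 Treg libraries, 5 of which stand apart, and above 100 CPM in 6. Its log2 fold change was −2.21 (SE 0.85, adjusted p = 0.122), and −1.78 (adjusted p = 0.0536) without the libraries that stand apart. With the pool of mice as a block it was −5.30 (adjusted p = 0.00898), in a fit in which the median over all genes was −4.62.

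*Tigit* in hypothalamic Tconv had 20.4, 45.4, 24.9 and 24.1 CPM (SD) and 62.05, 30.7, 25.5 and 21.6 CPM (HFHS) in C57Bl/6J mice, and 3.71, 7.42, 5.85 and 18.6 CPM (SD) and 1.19, 15.2, 29.4 and 31.3 CPM (HFHS) in Balb/c mice. Tregs had 48.4, 654, 0 and 435 CPM (SD) and 112, 53.5, 0 and 121 CPM (HFHS) in C57Bl/6J mice, and 14.8, 1.86, 0 and 0 CPM (SD) and 4.73, 109, 69.7 and 169 CPM (HFHS) in Balb/c mice. The Treg values of 48.4, 654 and 1.86 CPM and the value of 0 in both C57Bl/6J groups are in libraries that stand apart. With or without them, the groups overlapped. The log2 fold change was 2.04 (SE 0.99, adjusted p = 0.293), and 2.02 (adjusted p = 0.141) without these libraries. The interaction of cell type and tissue, in which 12.9% of 14727 genes passed, was −0.26 (SE 1.02) for *Tigit* and −0.31 (SE 0.94) for *Cd226*, with 0 of the 9 genes past the threshold. At an unadjusted p under 0.05 stood 2 of them, *Havcr2* and *Lag3*, and 21.2% of all genes. DESeq2 called 0 members and 8.4% of all genes. Limma-voom called 4 (*Cd226*, *Cd96*, *Lag3* and *Pdcd1*) where it called 40.1% of all genes with a median of −1.53, and the fit with the pool as a block 1 (*Lag3*, −5.50, adjusted p = 0.0411) where it called 12.1% with a median of −1.68. The interval of the interaction at 2 SE ran from −2.30 to 1.79 for *Tigit* and from −2.18 to 1.56 for *Cd226*. *Pdcd1* in hypothalamic Tregs ran from 0 to 1001 CPM with 10 of 16 libraries above 3 counts, against 7.46 to 191 CPM in Tconv.

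Tissues were then compared within a cell type. In Tconv, 0 of the 9 genes passed between the hypothalamus and the rest brain, while 16.9% of 12803 genes did. The tissues share pools of mice. With the pool as a block, in a fit limited to the 9 pairs of libraries with the same pool label, 33 of 13035 genes passed. C57Bl/6J libraries alone gave 1 of 11458 and Balb/c libraries alone 3016 of 11786. Since this background depends on the fit, nothing is read from 0 of 9 against it. The interval at 2 SE was narrow for *Cd226* (log2 fold change −0.11, from −0.39 to 0.17) and *Cd96* (0.07, from −0.16 to 0.30) and wider for *Tigit* (−0.15, from −0.85 to 0.54) and *Pdcd1* (0.55, from −0.45 to 1.56). *Tox* alone stood at an unadjusted p under 0.05 (−0.48, SE 0.23, unadjusted p = 0.0474, adjusted p = 0.174), where 27.7% of all genes did. DESeq2 called 0 members here and 19.6% of all genes, and limma-voom 1, *Tox* (−0.62, adjusted p = 0.0334), and 23.9%.

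In Tregs, *Lag3* and *Havcr2* were lower in the hypothalamus than in the rest brain, where 0.31% of 12571 genes were higher and 4.61% lower. *Lag3* was above 3 counts in 10 of 14 rest brain Treg libraries and in 1 of 16 hypothalamic ones, at 3.61 CPM. *Havcr2* was above 3 counts in 6 of 14 and in 1 of 16, at 8.69 CPM. The hypothalamic Treg libraries held 2109 to 9901 features over 10 counts (median 4482) and those of the rest brain 5433 to 9615, and the median log2 fold change over all genes was −0.61. Summed microglial markers reached 20488 CPM in the hypothalamus and 289.5 CPM in the rest brain, and those of macrophages or monocytes 2501 and 14.8 CPM. Endothelial markers had a median of 1.84 CPM, with a highest value of 4122 CPM, against 94.9 CPM, with a highest value of 134 CPM. In rest brain Tregs, *Cldn5*, *Cdh5* and *Flt1* were under 1 CPM in every library, so this level is mostly that of *Pecam1*. The 4122 CPM were in the library with T cell markers at 149 CPM, which stands apart. T cell markers were at 149 to 7035 CPM and 4467 to 6591 CPM. The part of these in the result was not tested. The fitted log2 fold changes were −5.91 (SE 1.61, adjusted p = 0.0214) and −7.23 (SE 2.22, adjusted p = 0.0480), which depend on the prior count where a group is mostly at 0. With the pool as a block neither passed (adjusted p = 0.187 and 0.244), nor did any of 12057 genes, and *Havcr2* did not pass without the libraries that stand apart (−6.74, adjusted p = 0.118).

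Between the strains, most calls were made in Tconv of the rest brain. There *Pdcd1*, *Tigit* and *Tox* were lower in Balb/c than in C57Bl/6J mice, and *Cd226* did not pass. Of 12259 genes, 12.2% were higher and 11.4% lower in Balb/c mice, against 0 and 3 of the 9 members, and the median log2 fold change was −0.03 over all genes and −1.37 over the members.

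*Pdcd1* in rest brain Tconv of C57Bl/6J mice had 122, 52.9, 92.3 and 122 CPM on SD and 165, 122 and 145 CPM on the HFHS diet. Balb/c mice had 19.7, 9.98 and 31.04 CPM on SD and 0, 12.9 and 2.19 CPM on the HFHS diet. The lowest C57Bl/6J library thus stood above the highest Balb/c library. *Pdcd1* was 9.06-fold lower in Balb/c mice (log2 fold change −3.18, SE 0.69, adjusted p = 0.00226). It passed the test in each diet alone, at −2.18 on SD and −4.38 on the HFHS diet.

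*Tigit* was 3.53-fold lower (log2 fold change −1.82, SE 0.43, adjusted p = 0.00437) and *Tox* 2.36-fold lower (−1.24, SE 0.19, adjusted p = 0.000155), with values as given above and no overlap of the strains for either gene. On the HFHS diet alone, *Tigit* did not pass (−1.33, adjusted p = 0.156). *Cd226* had a log2 fold change of 0.06 between the strains, from −0.29 to 0.41 at 2 SE, and *Btla* one of −0.13 within a wider interval, from −0.78 to 0.52. *Cd96* (−0.35, adjusted p = 0.0580) and *Cd160* (−1.37, adjusted p = 0.0658) did not pass, although *Cd160* did without the library that stands apart (−1.84, adjusted p = 0.0247).

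Markers of cell types were measured beside this comparison. The summed level of *Cd8a* and *Cd8b1* was 276 to 479 CPM in the Balb/c and 1.94 to 736 CPM in the C57Bl/6J libraries, with medians of 348 and 39.8 CPM. The summed T cell markers were at 6013 to 6583 CPM and 5092 to 6562 CPM. Microglial markers summed to 82.6 to 667 CPM in Balb/c and to 68.9 to 111 CPM in C57Bl/6J libraries, and *Cd3e*, a subunit of the T-cell receptor complex, was at 982 to 1230 CPM in Balb/c mice on the HFHS diet, at 1967 to 2175 CPM in Balb/c mice on SD and at 1936 to 2355 CPM in the C57Bl/6J libraries, so that its lower level was in the Balb/c libraries on the HFHS diet alone. Their part in the result was not tested. Without the library with the highest microglial sum, *Pdcd1*, *Tigit* and *Tox* were at −3.54, −1.63 and −1.35 and passed.

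In Tconv of the hypothalamus, 0.996% of 10848 genes were higher and 1.11% lower in Balb/c mice, and 0 of the 8 members tested passed. At an unadjusted p under 0.05 stood 4 of them, *Btla*, *Cd160*, *Tigit* and *Tox*, and 9.94% of all genes, while DESeq2 called 1 member and 5.02% of all genes and limma-voom 0 and 2.77%. The log2 fold changes of *Tigit* (−1.29, SE 0.56, adjusted p = 0.411), *Tox* (−1.01, SE 0.39, adjusted p = 0.323) and *Pdcd1* (−0.89, SE 0.47, adjusted p = 0.600) had the sign seen in the rest brain. *Cd160* was at 11.3 to 46.8 CPM in C57Bl/6J and 0 to 11.3 CPM in Balb/c mice (−2.22, SE 0.81, adjusted p = 0.253).

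In Tregs, 0.3% of 11679 genes differed between the strains in the rest brain and 0.0389% of 7709 in the hypothalamus, and none of the members passed (9 and 6 tested). *Tigit* in rest brain Tregs had a log2 fold change of −1.02 (SE 0.42, adjusted p = 0.404). At an unadjusted p under 0.05 it stood alone among the members in the rest brain, with 8.88% of all genes, while 0 members and 3.79% of all genes stood there in the hypothalamus. DESeq2 and limma-voom also called 0 members in either, with 2.55% and 1.05% of all genes in the rest brain and 3.24% and 0.169% in the hypothalamus. In the hypothalamus, the interaction of cell type and strain, which 8.0% of 11254 genes passed, was called for *Cd160* (13.43, SE 3.20, adjusted p = 0.0132) and *Havcr2* (−8.88, SE 2.74, adjusted p = 0.0409). *Cd160* was above 3 counts in 2 of 16 hypothalamic Treg libraries, at 2.27 and 156 CPM, and *Havcr2* in 1, at 8.69 CPM, so these values rest on 1 or 2 libraries. Neither passed with limma-voom (4.20 and −4.09) or with the pool as a block (5.46 and −4.12).

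**Figure D4:**
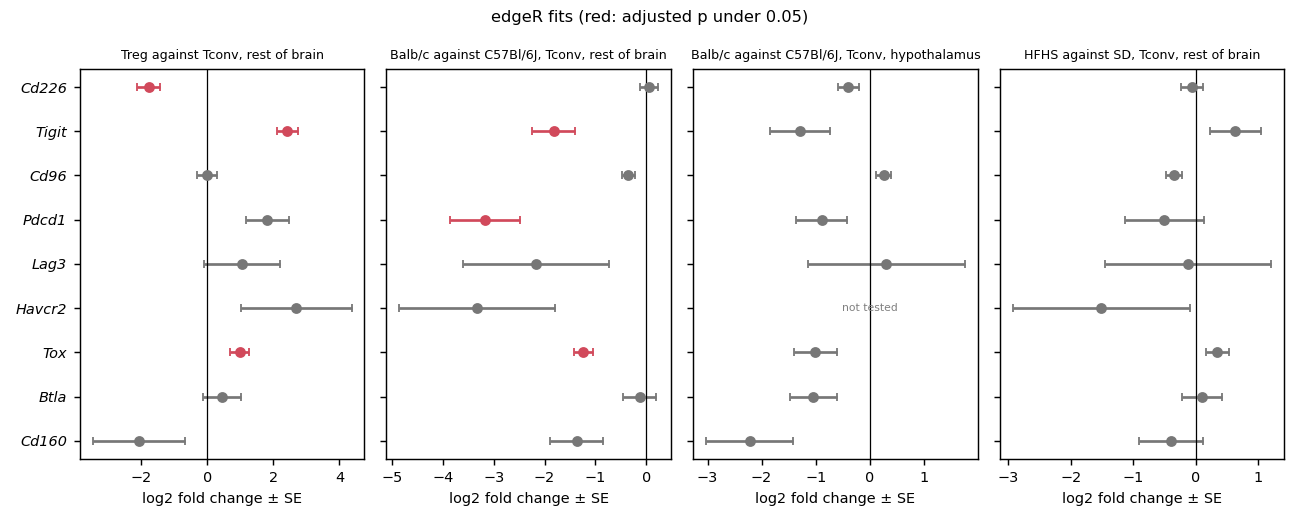
Log2 fold change with its SE from edgeR for the 9 genes in Tregs against Tconv of the rest brain, Balb/c against C57Bl/6J mice in Tconv of each tissue, and HFHS diet against SD in rest brain Tconv, with adjusted p under 0.05 in red. *Tigit* moved up by 2.42 and *Cd226* down by 1.77 between cell types, *Pdcd1* fell by 3.18 between strains in the rest brain, and no gene passed for the diet.

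The diet was the question of the later experiment, and 0 of the members tested passed in any of the 4 populations. Of the members, 8 were tested in hypothalamic Tconv, 6 in hypothalamic Tregs and 9 in each population of the rest brain. edgeR called 0.0% of the genes tested in each, with 405 genes (hypothalamic Tconv), 213 (hypothalamic Treg), 594 (rest brain Tconv) and 850 (rest brain Treg) at an unadjusted p under 0.05. DESeq2 called 13, 182, 12 and 326 genes and limma-voom 0, 4, 1 and 16, none of them a member. *Cd226* had a log2 fold change of 0.13 in hypothalamic Tconv, from −0.24 to 0.51 at 2 SE, and of −0.07 in rest brain Tconv, from −0.42 to 0.28. In Tregs the intervals were far wider, from −1.28 to 1.40 in the rest brain and from −4.66 to 4.64 in the hypothalamus. *Tigit* (0.72, SE 0.55) and *Pdcd1* (0.73, SE 0.47) in hypothalamic Tconv were within about 2 SE of 0.

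Members at an unadjusted p under 0.05 for the diet were *Tox* in hypothalamic Tconv (log2 fold change 0.83, unadjusted p = 0.0496) and *Cd96* in rest brain Tconv (−0.35, unadjusted p = 0.0135, adjusted p = 0.893), in edgeR fits over 10848 and 12259 genes. *Tox* had 138, 57.2, 57.5 and 84.6 CPM on the HFHS diet and 49.6, 99.3, 66.8 and 74.4 CPM on SD in C57Bl/6J mice, and 73.1, 15.1, 31.5 and 133 CPM against 12.9, 28.8, 27.5 and 27.9 CPM in Balb/c mice. The diets overlapped in both strains. *Cd96* in rest brain Tconv had 187, 182 and 213 CPM on the HFHS diet and 313, 381 and 325 CPM on SD in Balb/c mice. In C57Bl/6J mice it had 378, 404 and 385 CPM against 465, 408, 348 and 440 CPM. The Balb/c libraries also differed in *Cd3e*, at 982 to 1230 CPM on the HFHS diet and 1967 to 2175 CPM on SD. The part of this was not tested. In Balb/c libraries alone, 12.5% of 10992 genes stood at an unadjusted p under 0.05 for the diet, and 0 passed. The interaction of strain and diet was called by edgeR for 0 members in each population, where it was called for 0.0% of all genes in hypothalamic Tconv and Tregs and rest brain Tregs and for 0.963% in rest brain Tconv. At an unadjusted p under 0.05 stood *Btla* in hypothalamic Tregs, where 16.8% of all genes did, and *Cd160* and *Tigit* in rest brain Tregs, where 5.6% did. Limma-voom called 0 members, and 1.43% and 0.00856% of all genes in these. DESeq2, which called 17.3% of all genes in hypothalamic and 4.91% in rest brain Tregs, called *Btla* in hypothalamic Tregs, where it was at 0 in 4 of 4 Balb/c libraries on SD, and *Cd160* in rest brain Tregs, where it was at 0 in 4 of 4 C57Bl/6J libraries on SD.

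Other genes of these pathways were followed through lists of ligands and partners, of further checkpoint and costimulatory receptors, of signalling molecules and of transcription factors. Between Tregs and Tconv of the rest brain, 10 of 15 tested receptors were higher and 0 lower, with a median log2 fold change of 1.07, where 4.37% of all genes were higher and 10.5% lower. They include the costimulatory receptors 4-1BB (*Tnfrsf9*, 6.34, SE 0.62, adjusted p = 1.35e-08) and OX40 (*Tnfrsf4*, 3.11, SE 0.21, adjusted p = 5.15e-12), and *Klrg1* (4.16, SE 0.38, adjusted p = 4.58e-09). *Ctla4* and *Tnfrsf18* among the 10 are also on the list of Treg markers. Of 18 transcription factors, 4 were higher and 3 lower, among them *Ikzf2*, which encodes Helios (3.22), *Eomes* (−9.18) and *Id2* (−3.24). Of 12 signalling genes, 2 were higher, *Vav1* (1.17) and *Ptpn6* (0.70), and of 9 ligands and partners tested 1 was lower, *Tnfsf14* (−7.13), which encodes the HVEM ligand LIGHT. In the hypothalamus, 4 receptors were higher and 1 lower, and 2 transcription factors were higher and 3 lower, where 0 of the members passed and 0.542% of all genes were higher and 7.18% lower. *Tnfrsf9* (4.88) and *Tnfrsf4* (3.26) were among the higher receptors there, and *Cd244a* (−7.10) was the lower one. Hypothalamic Treg libraries, which include those that stand apart, held 2109 to 9901 features over 10 counts, against 9016 to 10133 in Tconv. NK cell markers summed to at most 0.12 CPM in these Tregs and to 0 to 75.3 CPM in Tconv. The part of these was not tested.

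Between the strains in rest brain Tconv, 9 of 12 signalling genes were lower in Balb/c mice and 0 higher, with a median log2 fold change of −0.76, where 12.2% of all genes were higher and 11.4% lower. The largest were *Plcg1*, which encodes phospholipase C gamma 1 (−2.38, SE 0.46, adjusted p = 0.000866), *Vav1*, a guanine nucleotide exchange factor of T-cell receptor signalling (−1.86, SE 0.22, adjusted p = 1.84e-05), and *Inpp5d*, which encodes the phosphatase SHIP-1 (−1.04, SE 0.24, adjusted p = 0.00424). Calls between the strains were not even over the diets, with 7.23% of all genes in SD libraries alone and 20.9% in HFHS libraries alone. The strain by diet interaction of the 12 signalling genes had a median of −0.59, against −0.00079 over all genes, with 0 of them called. Of 15 receptors in the fit of both diets, 5 were lower and 1 higher, with *Cd6* (−1.90) and *Tnfrsf9* (−2.59) among the lower. Among 18 transcription factors, 4 were lower, such as *Nr4a1* (−1.53) and *Tbx21* (−1.48), and 2 higher, such as *Maf* (1.35). Of 9 ligands and partners, 2 were lower, *Cd274* (−0.80), which encodes the PD-1 ligand PD-L1, and *Lgals9* (−0.35), and 1 was higher, *Tnfrsf14* (3.77). In Tregs of the rest brain, 0 genes of the 4 lists passed between the strains. Between the tissues in Tconv, 4 signalling genes were higher and 1 lower in the hypothalamus in the fit without the pool as a block, in which 16.9% of all genes passed, and nothing is read from this count, since 33 of 13035 genes passed with the block.

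For each gene, the pattern over the 16 groups was compared with that of 9553 genes by Pearson's r of group means of log2(CPM + 1), as a description in which the groups share depth and cell type. The nearest to *Cd226* were *Suco* (r = 0.977), *Gramd3* (0.964) and *Card19* (0.959). *Tigit* was nearest to *C230024C17Rik* (0.863), *Pglyrp1* (0.855) and *Ephx1* (0.834), and *Cd96* to *Nol11* (0.984). *Pdcd1* was nearest to *Irf5* (0.892), *Tox* to *Tmem191c* (0.872), *Lag3* to *Il10* (0.842), *Havcr2* to *Neil1* (0.801), *Btla* to *Eci1* (0.942) and *Cd160* to *Mtmr1* (0.918). None of the members was among the 3 nearest genes of another.

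The pilot libraries were set alongside by symbol. They hold 99925 to 5334511 reads on genes, and 82.9% to 99.6% of all reads lay on no gene or were not assigned. With 1 library per group there is no replicate check. Fold changes use counts divided by size factors, with exact Clopper-Pearson 95% intervals that cover counting error only, and a gene counts as changed with more than 20 normalized reads in 1 library and a fold above 2 or below 0.5. Against a library with 0 counts, the 95% limit of the ratio of the observed counts is given as a bound. The fold with 3 counts in place of 0 follows it and decides whether a gene counts as changed. Scaled to the reads on genes, *Foxp3* was at 72.7 CPM in CD4+ T cells and 75.3 CPM in Tregs on SD, at 1.38 and 90.7 CPM on the HFHS diet, at 27.8 and 270.2 CPM in *ob*/*ob* mice and at 299.5 and 2.44 CPM in WT mice. Thus the WT pair ran against its labels and the SD pair was close to equal. The library labelled WT Tregs held 99908 counts of the microglial gene *P2ry12*, which had 0 in the other 7. With 1 library per group, the comparison that uses it cannot be given without it.

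In the libraries labelled CD4+ T cells of Balb/c mice, 2 of 5 members with enough reads were past 2-fold. Both were higher on the HFHS diet, where 24.8% of 6686 genes were higher and 37% lower. *Pdcd1* had 57 against 9 counts, or 10.8-fold (interval 5.30 to 24.8). *Cd226* was 10.1-fold higher, with 627.8 against 62.1 normalized reads. *Cd96* (1.63-fold), *Btla* (1.58-fold) and *Tox* (1.42-fold) stayed under 2-fold, and *Tigit* had 0 and 1 counts. In the later experiment, the sort took CD44hi CD62Llow cells and several libraries, and *Cd226* in hypothalamic Balb/c Tconv differed by 0.08 (log2, SE 0.26) between the diets.

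In the libraries labelled Tregs of Balb/c mice, *Cd226* had 348 counts with HFHS diet against 0 with SD, at least 78.1-fold higher (96.6-fold with 3 counts in place of 0). *Pdcd1* had 421 and 0, at least 94.6-fold higher (117-fold in the same way). *Cd96* had 3013 against 313 counts, or 8.01-fold (interval 7.13 to 9.03). *Tox* went the other way, with 15 against 168 counts, 13.5-fold lower (interval 7.93 to 24.6). These 4 were the members past 2-fold, 3 higher and 1 lower, where 48.2% of 5445 genes were higher and 32.3% lower, so that most genes with enough reads were past 2-fold between these 2 libraries. *Tigit* had 0 counts in both, which at 3 counts allows up to 1.48 and 2.43 CPM.

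Between *ob*/*ob* and WT mice, 5 members were higher in the libraries labelled CD4+ T cells and 0 lower, where 57.3% of 6440 genes were higher and 28.5% lower. *Tigit* had 61 counts against 0 (at least 2.06-fold, 2.61-fold with 3 counts in place of 0). In the same way, *Tox* had 479 against 0 (at least 16.6-fold, 20.5-fold) and *Pdcd1* 102 against 0 (at least 3.48-fold, 4.36-fold). *Cd226* had 402 against 2 counts, a ratio of 25.8 (interval 7.09 to 214), and *Cd96* 653 against 19, or 4.41-fold (interval 2.80 to 7.37). In the CD25high libraries, 3 members were higher and 1 lower in *ob*/*ob* mice, where 23.8% of 5901 genes were higher and 55.5% lower. *Btla* had 33 counts against 0 (at least 132-fold, 172-fold with 3 counts in place of 0) and *Cd226* 4 against 0 (at least 10.3-fold, 20.8-fold in the same way). *Tox* had 7 against 2 (a ratio of 54.7, interval 10.4 to 539). In the *ob*/*ob* library 3 counts are 30.02 CPM, and its 4 counts of *Cd226* are 40.03 CPM. The WT library had *Cd3e* at 17.8 CPM and 0 counts of *Cd4*, against 430 CPM and 7 counts in the *ob*/*ob* library. *Havcr2* had 185 counts in the WT library and 0 in that of *ob*/*ob* mice, at least 3.18-fold lower (3.95-fold with 3 counts in place of 0). The WT library is the one with *P2ry12*. Scaled by CPM in place of size factors, the ratio for *Havcr2* with 3 counts in place of 0 was 0.866, short of 2-fold.

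**Figure D5:**
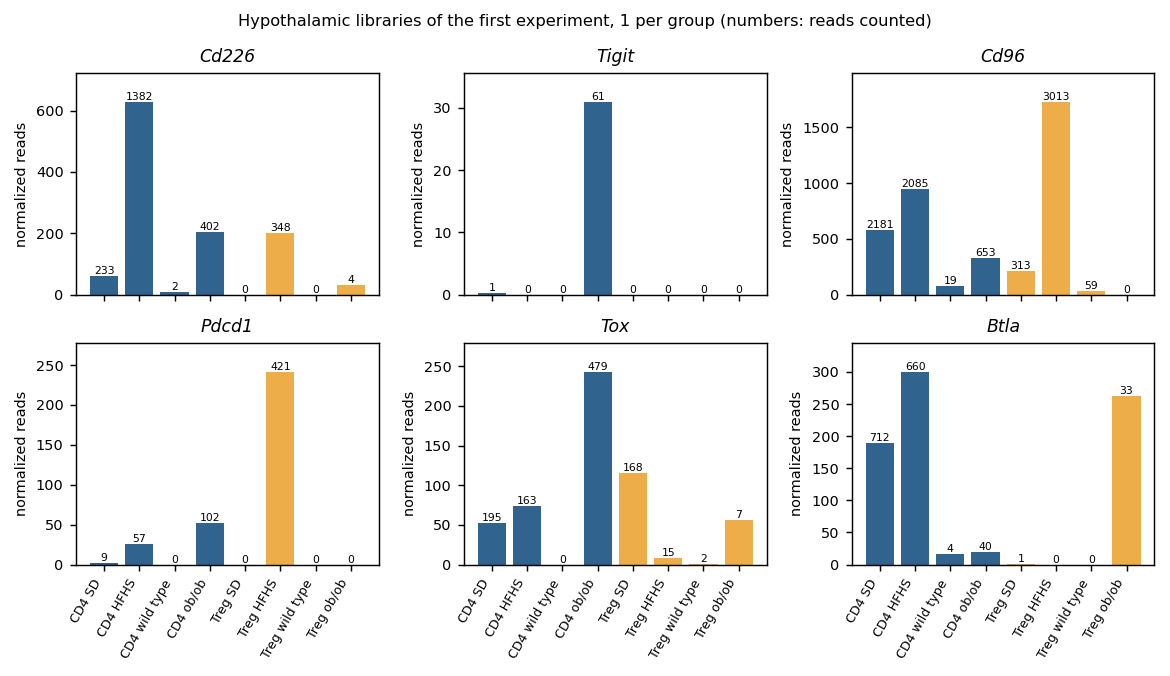
Normalized reads of 6 genes in the 8 pilot libraries, 1 per group, with the counts above the bars, libraries labelled CD4+ T cells in blue and those labelled Tregs in orange. *Cd226* stands at 1382 and 348 counts on the HFHS diet against 233 and 0 on SD, and *Tigit* is at 0 or 1 counts in 7 of the 8 libraries.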

How the data were processed

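RNA of Tregs and T cells sorted from mouse brain was sequenced in 59 libraries of the later experiment and 8 pilot libraries, and groups were taken from the GEO labels. For the pilot, the authors aligned reads with BWA to mm10 and used HTSeq to count them per gene, so that the deposited pilot values are unnormalized counts. In the later experiment the authors ran Salmon, whose deposited output gives estimated counts and TPM for each transcript name. Versions of BWA, HTSeq and Salmon themselves are not given in the sources used here. Of 35034 names per file, 99.47% matched a gene symbol through RefSeq accessions, and values were summed to 24471 gene features. CPM was computed here from the deposited estimated counts. For tests, sums were rounded to whole numbers.

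A gene was kept if its count exceeded 10 in a number of libraries no smaller than the size of the smallest strain, diet, cell type and tissue group compared. Kept genes were tested with edgeR 4.0.16 (TMM, quasi-likelihood test) in R 4.3.3, with strain and diet as additive terms, and p-values were adjusted by Benjamini-Hochberg over all genes. The fits were first tested on simulated data. DESeq2 1.42.0 (Wald test, and its size factors in edgeR), limma 3.58.1 (voom with quality weights), other filters, the pool of mice as a block, single strains and diets, and leaving out each library in turn were the alternatives. Leaving out the 6 libraries that stand apart (*P2ry12* at 200 CPM or more, fewer than 5000000 counts, or fewer than 2500 features over 10 counts) was chosen after seeing the data. The library is the replicate. Libraries of a group carry different pool labels, and p-values measure the spread between them. In 1 hypothalamic Tconv library of C57Bl/6J mice on SD the label ends below its start and begins like another label of its group, and number ranges of a pair of HFHS pools of Balb/c mice overlap. Whether these share mice is not given in the sources used here. The block fits hold only libraries with a partner of the same pool label, so the C57Bl/6J library named here was left out of them. Pool labels are shared by cell types and tissues of the same strain and diet, so these libraries come from the same mice. Same-pool libraries did not deviate together, with a median r of −0.0045 over 15 pairs in the hypothalamus and 0.011 over 12 in the rest brain between cell types, and 0.016 over 9 and −0.011 over 10 between tissues in Tconv and Tregs.

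Libraries held 1724154 to 38482282 estimated counts, with the lowest in hypothalamic Tregs, and 3 counts, taken as the floor of detection, correspond to 0.078 to 1.74 CPM. Pilot counts were scaled by size factors (median of ratios over 786 genes), and lines that name no gene, 82.9% to 99.6% of the counts, were left out of library sizes. Genes named are the 9 members, in each cell type, tissue and strain comparison up to 3 called genes of each list with the largest log2 fold change, and the 3 genes nearest to each member in pattern. Members and lists were chosen with earlier results of these data known. Figures and summaries used Python 3.11.15, numpy 2.4.6, pandas 2.3.3, scipy 1.17.1 and matplotlib 3.10.9.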

Additional observations from a re-analysis of the deposited data

Results flagged for a closer look

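In groups of 4 libraries, 14 of 83 member and group pairs examined held a library far from the others. The rule used flags about 1 in 20 groups of normally distributed values. CPM values with several at or near 0 are not of that form, so no excess over chance is read from this. In hypothalamic Tconv these were *Btla* at 126 CPM and *Havcr2* at 17.8 CPM in 1 library each of C57Bl/6J mice on SD and on the HFHS diet, *Havcr2* at 16.6 CPM and *Cd226* at 260 CPM, the lowest of its group, in libraries of Balb/c mice on the HFHS diet, and *Tox* at 12.9 CPM, also the lowest, in Balb/c mice on SD. The group of *Cd226* at 260 CPM has its other libraries between 287 and 290 CPM. In hypothalamic Tregs, *Cd226* reached 102 CPM and *Tox* 381 CPM in C57Bl/6J mice on SD, *Pdcd1* 363 CPM in C57Bl/6J mice on the HFHS diet, *Cd160* 156 CPM and *Cd96* 480 CPM in Balb/c mice on the HFHS diet, and *Tigit* 14.8 CPM and *Pdcd1* 332 CPM in Balb/c mice on SD. The *Tox* value of 381 CPM and the *Pdcd1* value of 332 CPM come from libraries that stand apart. *Cd226* at 102 CPM is in the 1 library of its group that does not, while the others, at 0 to 1.66 CPM, do. In rest brain Tregs of C57Bl/6J mice on SD, 1 library held both *Havcr2* at 64.1 CPM and *Pdcd1* at 652 CPM.

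The difference between cell types itself differed between the strains, by edgeR's interaction term with adjusted p under the threshold, for *Tox* in the rest brain (1.71 on the log2 scale), and in the hypothalamus for *Cd160* (13.43) and *Havcr2* (−8.88). With the pool of mice as a block, 0 of these passed (*Tox* at an adjusted p of 0.111), and *Cd160* and *Havcr2* were above 3 counts in 2 and 1 of the 16 hypothalamic Treg libraries.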

How the results depend on the processing

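Among members called in the reported fits and pilot folds past 2-fold, none reversed its direction. The direction of other members was not compared. Of counts of members that passed, 134 values under other settings were within 1.5 times the value reported and 29 were not. The 134 include every count of 0 that stayed at 0, from which nothing is read. Leaving out each library in turn, which was done for the strain and diet comparisons within a cell type and tissue and not for the others, gave 3 or 4 members for strain in rest brain Tconv (3 reported). It gave 0 elsewhere, where 0 were reported, from which nothing is read. *Pdcd1*, *Tigit* and *Tox* stayed lower in Balb/c Tconv of the rest brain without each of 13 libraries (log2 fold changes of −3.54 to −2.86, −2.01 to −1.63 and −1.39 to −1.18, highest adjusted p of 0.00674, 0.0234 and 0.00069). Between Tregs and Tconv of the hypothalamus (0 members), DESeq2 gave 1, limma-voom 4, C57Bl/6J libraries alone 1 and SD libraries alone 1. In the rest brain (3 members), SD libraries alone gave 1. Between tissues, limma-voom gave 1 in Tconv (0 reported). In Tregs (2 reported), DESeq2 size factors in edgeR, a filter of more than 10 counts in total and the libraries that do not stand apart gave 1 each, and C57Bl/6J, SD and HFHS libraries alone gave 0 each. DESeq2 gave 1 member for strain in hypothalamic Tconv (0 reported), 5 in rest brain Tconv (3 reported, with *Cd160* at −1.31 and *Cd96* at −0.30 added), and 1 for strain by diet in Tregs of each tissue (0 reported). For cell type by strain in the hypothalamus (2 reported), DESeq2, which gave no adjusted p for these genes, and limma-voom gave 0, and the libraries that do not stand apart gave 1. For cell type by tissue (0 reported), limma-voom gave 4. In the pilot (2, 4, 5 and 4 members past 2-fold), requiring more than 20 normalized reads in both libraries gave 1, 1, 1 and 0. The cause of these differences was not tested.

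With the pool as a replicate block, 5 members passed between cell types in the hypothalamus (*Btla*, *Cd160*, *Cd226*, *Havcr2* and *Lag3*), in a fit whose median over all genes was −4.62 against −0.59 without the block. In the rest brain, *Cd226* (−2.47, adjusted p = 0.00148) and *Tigit* (2.41, adjusted p = 0.000646) passed with the block. Over all genes, the block gave 5623 calls against 869 without it between cell types in the hypothalamus, 33 against 2170 and 0 against 619 between tissues in Tconv and Tregs, and 0 against 900 and 210 against 589 for cell type by strain in the hypothalamus and the rest brain. It gave 0 members between tissues in Tregs, 0 for cell type by strain in each tissue and 1 for cell type by tissue, and moved no other count of members by over 1.5 times. The fits with the block hold only libraries with a partner from the same pool. Thus the genes tested also differ (11652 against 11254 between cell types in the hypothalamus), and the part of each change was not tested.

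Among single members, 116 values under other settings kept their call, 23 lost it and 5 pilot folds moved beyond their counting interval. Other scalings and filters also moved pilot folds by over 1.5 times, for *ob*/*ob* CD4+ T cells in *Tigit* (2.59 to 31.9), *Tox* (20.4 to 244), *Pdcd1* (4.34 to 52.7) and *Cd226* (23.0 to 49.4), for *ob*/*ob* Tregs in *Btla* (169 to 587), *Tox* (28.1 to 187) and *Cd226* (32.8 to 71.2), and for HFHS Tregs in *Cd226* (70.6 to 200.5) and *Pdcd1* (85.4 to 242). *Havcr2* between tissues in Tregs lost its call under 7 settings, with log2 fold changes of −9.96 to −2.23. *Lag3*, *Havcr2* and *Cd160* were above 3 counts in 1, 1 and 2 of 16 hypothalamic Treg libraries, where levels under 0.078 to 1.74 CPM, depending on the library, could not be detected.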
